A study of Mus musculus with 12 samples.

Results

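Prostaglandin synthases and *Plb1* were described across 4 groups of mouse corticotrophs, the ACTH-producing cells of the anterior lobe. The set held 9 of the 55304 genes in the table and all 9 were measured. *Ptgds* and *Plb1* were chosen by their rise during treatment with the synthetic glucocorticoid dexamethasone (DEX), so their values in the control and DEX groups are given as a description, with no test. *Hpgds*, *Ptgs1*, *Ptgs2*, *Ptges*, *Ptges2*, *Ptgfr* and *Pla2g4a* belong to the set by function, and these 7 genes were tested. The animals were male *Pomc*-eGFP mice, in which the *Pomc* promoter drives a green fluorescent protein. They are given as 8 weeks old, and every group then followed a protocol of 8 weeks, so the cells came from older mice. Fluorescent cells were sorted from dissociated anterior lobes with gates set on wild-type pituitaries. Group A (control) drank plain water, group B (DEX) received 2.5 µg/ml DEX in the drinking water for 4 weeks, and groups C and D were given plain water again for 1 week and 4 weeks after such a treatment. Each group held 3 libraries, and each library was a pool of up to 3 pituitaries from cage mates. The sort depended on a transgene under the promoter of *Pomc*, a gene that DEX represses, and this limits what a change in the sorted cells can stand for. The replicates are pools, so that p-values measure the spread between pools.

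Prostaglandins are made in steps. A phospholipase such as cytosolic phospholipase A2 (*Pla2g4a*) frees arachidonate from membranes, a cyclooxygenase (*Ptgs1* or *Ptgs2*) turns it into prostaglandin H, and a terminal synthase gives the final product. Prostaglandin D comes from the secreted lipocalin-type synthase (*Ptgds*) or the haematopoietic synthase of mast cells and macrophages (*Hpgds*), and prostaglandin E from *Ptges* and *Ptges2*. *Ptgfr* encodes the receptor for prostaglandin F. *Plb1* encodes a membrane phospholipase that removes fatty acids from both positions of a phospholipid. *Ptgds* is best known from the meninges, choroid plexus and oligodendrocytes of the brain, and glucocorticoids classically restrain the release of arachidonate and the induction of *Ptgs2*.

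The bases before a RefSeq transcript start of the chosen genes, for *Plb1* the more 5′ of its 2 starts in the table, are printed because the groups differ most in these genes. Sequences and coordinates are from RefSeq on GRCm38.p6, and each stretch was cut so that it holds no annotated exon. For *Ptgds* the cut took away the bases next to the start, so the 157 bases printed do not reach it. The *Plb1* stretch is whole, at 250 bases. The *Ptgds* stretch lies on the minus strand at chr2:25469843-25469999, in an intron of a longer *Ptgds* transcript. The *Plb1* stretch lies on the plus strand at chr5:32238834-32239083, in an intron of longer *Plb1* transcripts.
Ptgds: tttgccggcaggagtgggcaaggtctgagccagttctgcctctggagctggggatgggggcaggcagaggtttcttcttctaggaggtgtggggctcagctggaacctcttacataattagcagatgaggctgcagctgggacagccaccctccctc
Plb1: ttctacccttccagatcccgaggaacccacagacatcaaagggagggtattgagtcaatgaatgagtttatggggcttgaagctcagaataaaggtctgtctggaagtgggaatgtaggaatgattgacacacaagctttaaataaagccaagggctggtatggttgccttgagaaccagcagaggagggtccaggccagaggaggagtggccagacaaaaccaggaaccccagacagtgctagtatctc

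The glucocorticoid receptor binds DNA at an inverted repeat of the hexamer AGAACA with 3 bases between the copies. The promoter table covered all 9 genes with 11 windows of 300 bases, each from 250 bases before to 50 bases after a transcript start. None of the 11 windows held the full repeat on either strand within 2 mismatches, against 1.84% of the 32851 windows in the table. The single hexamer on either strand stood in the windows of *Ptges* and *Ptgs1* and in the more 3′ of the 2 windows of *Pla2g4a*, and 19.0% of all windows held one. It was in no window of *Ptgds* or *Plb1*. The 3 sites are shown with the hexamer in capitals, which reads TGTTCT where it lies on the other strand. They stood 221, 191 and 204 bases before the start of these windows' transcripts, at chr1:149922643-149922672 on the minus strand for *Pla2g4a*, chr2:30903471-30903500 on the minus strand for *Ptges* and chr2:36230210-36230239 on the plus strand for *Ptgs1*.
Pla2g4a: ctcttaaaaaacAGAACActgttttgaaca
Ptges: gaggctttcaaaAGAACAatggtcctgagc
Ptgs1: tcttccaccattTGTTCTgcctacaagcct

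Libraries held 7719894 to 12848078 reads on genes, and 1 read was worth 0.0787 to 0.1275 normalised counts, the deposited unit (CPM after scaling between libraries). A gene without reads could have been present at up to 3 reads, or 0.236 to 0.382 normalised counts depending on the library, and such limits cover counting error only. *Pomc*, the defining corticotroph gene, was present in all 12 libraries, at 34560 to 74260 normalised counts in control and 4241 to 8521 in DEX. It had 43610 to 284700 at 1 week and 48190 to 80220 at 4 weeks. Other corticotroph markers were mixed in DEX. *Tbx19* had 218 to 459 in control and 498 to 1490 in DEX, and *Avpr1b* 12.1 to 60.0 and 67.9 to 130. Both rose without overlap, as did 6.61% of all genes. *Crhr1*, *Neurod1* and *Pcsk1* had lower means in DEX than in control, with overlapping pools. The means were 83.4 against 123.1, 28.21 against 29.65 and 229.4 against 345.0. The sorted cells were not free of other pituitary RNA. Hormone and receptor genes of somatotrophs, lactotrophs, gonadotrophs and thyrotrophs summed to 111200 to 387200, more than the 6 corticotroph markers in every library except the first pool of the 1-week group. In such bulk samples fewer cells of a type and less RNA per cell cannot be told apart.

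*Ptgds* had the highest level per length of the 9 genes in DEX, and its level there lay far above every other group. The 3 control pools had 40.4, 30.5 and 44.6 normalised counts, and the 3 DEX pools had 130, 132 and 245. One week after withdrawal the pools had 36.7, 37.7 and 31.4, and 4 weeks after withdrawal 21.5, 18.9 and 24.7. The DEX pools overlapped no other group, the 1-week pools lay within the control range, and all 4-week pools lay below all pools of the other groups. These values rest on 173 to 2186 reads per library.

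The control mean of *Ptgds* was 38.5 ± 7.23 and the DEX mean 169 ± 66.1 (SD, n = 3 pools). The mean was 35.3 ± 3.42 after 1 week and 21.7 ± 2.90 after 4 weeks of withdrawal. DEX was 4.39-fold above control, a difference in log2(normalised count + 0.1) of 2.08 (SE 0.272), and this contrast chose the gene. The third DEX pool was the highest, and the difference lay between 1.78 and 2.24 whichever library was left out. At 1 week the level was 4.79-fold below DEX and differed from control by -0.11 (SE 0.272) on the log2 scale. At 4 weeks it was 1.77-fold below control, with a log2 difference of -0.81 (SE 0.272), which uses the control pools on which the gene was chosen and is likewise a description. Of the 24736 genes tested, 6.61% had all DEX pools above all control pools and 6.42% had all 4-week pools below all control pools. The difference of means between 4 weeks and 1 week uses neither chosen group. Its interval and p-value do use them, since limma estimated a common spread over all 4 groups. The log2 difference was -0.70 (95% interval -1.28 to -0.12) and all 3 pools at 4 weeks lay below all 3 at 1 week, as for 3.72% of all genes, but the adjusted p of limma was 0.808 (0.163 to 1 over the alternatives) and no fall was called.

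*Plb1* had no reads in the control group and appeared during DEX. The DEX pools had 10.2, 8.99 and 15.9 normalised counts, from 110 to 142 reads each, and all 3 control pools had 0. The pools at 1 week had 0.475, 0.510 and 0.334, and those at 4 weeks had 0.0924, 0.219 and 0. The highest DEX pool was the same one as for *Ptgds*.

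With 3 reads per library as the limit for control, the DEX mean of *Plb1* (11.7 ± 3.71, SD, n = 3 pools) was at least 38.3-fold higher. The 1-week mean of 0.440 ± 0.0934 was 26.6-fold below DEX. It rested on 3 to 5 reads per pool and was 1.44-fold above the 3-read limit for control. This figure allows for no counting error in the 1-week pools, and the third of them was itself at 3 reads. The 1-week and control pools did not overlap, as for 3.47% of all genes in that direction. The 4-week pools had 1, 2 and 0 reads and none passed the limit. All 3 lay below the 1-week pools, as for 3.72% of all genes. The log2 difference of -1.54 (95% interval -2.85 to -0.24) was not called by limma (adjusted p = 0.815, 0.275 to 1 over the alternatives). This interval and p-value use a spread that includes the control pools at 0 and the DEX pools. The exons of *Plb1* overlap those of *Gm36840* on the opposite strand. The authors counted reads by strand, but the library kit named does not mark strand, so that reads of the overlapping bases cannot be told apart and may be assigned to either gene. *Gm36840* itself had 0.409 to 1.01 normalised counts in DEX and 0 to 0.222 in the other groups.

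**Figure D1:**
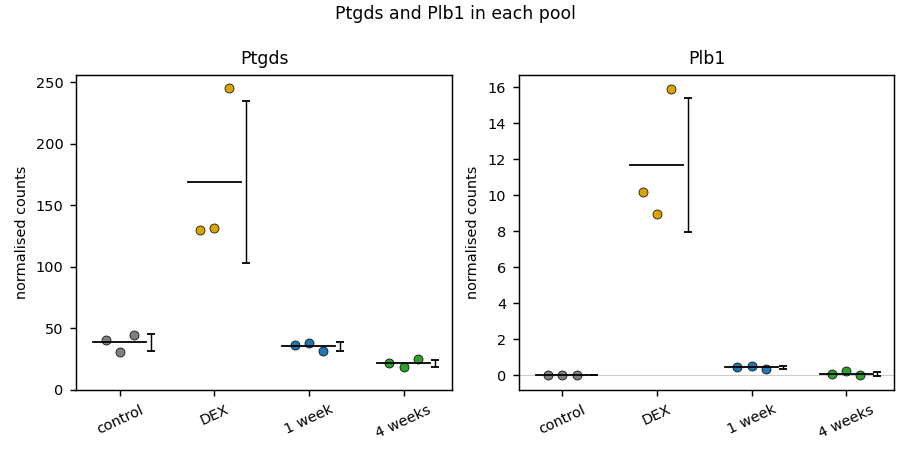
Normalised counts of *Ptgds* and *Plb1* in each pool of control, DEX, 1 week and 4 weeks (points), with the group mean (horizontal line) and its SD (error bar beside the points, n = 3 pools). The DEX pools stand above all others in both genes, *Plb1* is at 0 in the 3 control pools, and the lowest *Ptgds* values are the 4-week pools, from 18.9 to 24.7.

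Cell types known for *Ptgds* were followed through marker sums. The sum of 6 oligodendrocyte markers was 22.5 to 34.6 in control and 22.9 to 32.8 in DEX, with *Mobp* and *Opalin* at 0 in every library and most of it from *Mbp*. The 7 fibroblast and meningeal markers summed to 93.9 to 153 in control and 77.4 to 118 in DEX. They reached 170 to 272 at 4 weeks, where *Ptgds* was lowest. In DEX both sums overlapped their control range. Most of the fibroblast and meningeal sum came from *Col1a2*. The mean of each of these 7 markers was lower in DEX than in control, with overlapping pools. *Dcn* had means of 11.5 in control and 2.18 in DEX, and *Lum* 1.87 and 0.248. The 6 stem and folliculostellate markers summed to 131 to 312 in control and 306 to 327 in DEX, then to 166 to 280 after 1 week and 384 to 481 after 4 weeks. Of the DEX sums 1 lay within the control range and 2 lay above it, and all lay below those at 4 weeks. Most of this sum came from *Cyp2f2*, at 262 to 270.3 in DEX and 88.6 to 231 in control. Its pools did not overlap, as for 6.61% of all genes in that direction. *Sox2*, *Mia* and *S100b* had lower means in DEX than in control and *Fxyd1* and *Aldh1a2* higher means, all with overlapping pools. The pericyte and smooth muscle sum was 3.36 to 4.82 in DEX against 5.51 to 12.1 in control. The part of these cells in the *Ptgds* values was not tested.

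**Figure D2:**
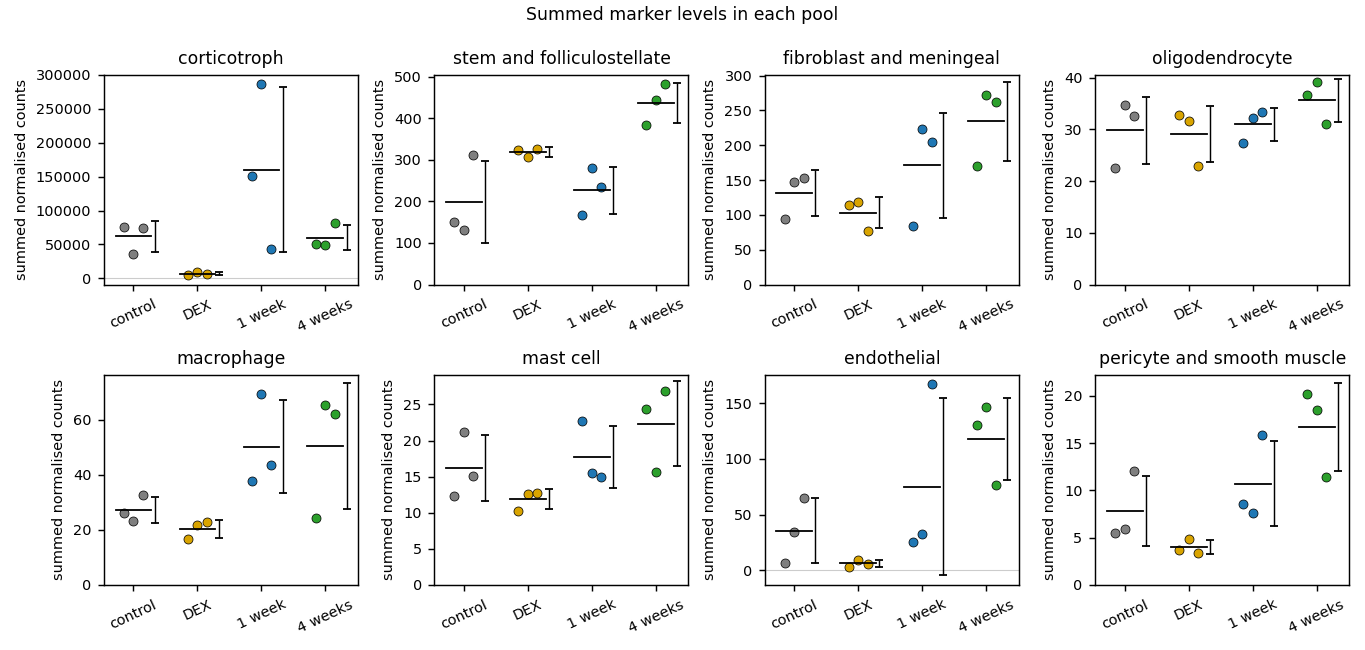
Summed normalised counts of 8 marker lists in each pool by group (points), with the group mean (line) and SD (error bar, n = 3 pools). The oligodendrocyte sum lies in the same range in control and DEX. The endothelial sum is 3.23 to 9.32 in DEX and 76.8 to 147 at 4 weeks. The corticotroph sum, nearly all of it from *Pomc*, is lowest in DEX, although *Tbx19* and *Avpr1b* within it are higher there than in control. *Crhr1*, *Neurod1* and *Pcsk1* within it have lower means there, with overlapping pools.

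The genes whose levels followed *Ptgds* and *Plb1* most closely are given as a description over the 12 libraries, among 15756 genes with a mean of at least 1 normalised count. The libraries fall into 4 groups, and a high correlation here says that a gene was high in the same DEX pools. For *Ptgds* the 8 highest Pearson r belonged to *Gm11716* (0.971), *Tmem37* (0.966), *Adamtsl3* (0.957), *Mthfd2* (0.954), *4833405L11Rik* (0.951), *Dpf1* (0.950), *1600029O15Rik* (0.949) and *Pacs2* (0.944). *Tmem37* went from a mean of 20.7 normalised counts in control to 201 in DEX, 18.4 at 1 week and 13.7 at 4 weeks. *Mthfd2*, a mitochondrial folate enzyme, had means of 45.0, 140, 50.2 and 35.5 in the same order. For *Plb1* they were *Adamtsl3* (0.946), *Fancd2* (0.937), *Atg4a* (0.924), *Adamts14* (0.917), *Chn1* (0.908), *Gpr39* (0.901), *Zfyve1* (0.900) and *Platr25* (0.897). *Adamtsl3*, a secreted glycoprotein related to ADAMTS proteases, was the one gene in both lists, with group means (A to D) of 0.0655, 7.60, 0.111 and 0. *Fancd2*, of the Fanconi anaemia DNA repair pathway, had 1.30, 17.8, 2.77 and 1.44. The correlation between *Ptgds* and *Plb1* themselves was 0.877, below those of the genes named for either.

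None of the 7 genes chosen by function was called by limma in the comparison of the 4 groups, where 0.315% of the 24736 genes were called. The smallest adjusted p among them was 0.487, 2 of the 7 had an unadjusted p under 0.05, and DESeq2, the quasi-likelihood test and the likelihood ratio test (both of edgeR) also called 0, beside 2.97%, 0.639% and 4.18% of all genes. In DEX against control limma called 0 of the 7, none had an unadjusted p under 0.05, and the share called of all genes was 0.121%. The other 3 tools called 0 of the 7 there as well, beside 0.768%, 0.17% and 1.11% of all genes in the same order. In each of the other 5 comparisons limma and these 3 tools called 0 of the 7. By limma 0 of the 7 had an unadjusted p under 0.05 in 1 week against control, 2 in 4 weeks against control, 2 in 1 week against DEX, 2 in 4 weeks against DEX and 1 in 4 weeks against 1 week. Shares of all genes called were 0.433% for 1 week against DEX and 0.873% for 4 weeks against DEX. They were 0% for 1 week against control (938 genes at an unadjusted p under 0.05, and 1, 50 and 8 genes called by the quasi-likelihood test, the likelihood ratio test and DESeq2), 0% for 4 weeks against control (1570 genes, and 0, 91 and 60) and 0% for 4 weeks against 1 week (1352 genes, and 0, 161 and 15).

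*Pla2g4a*, the phospholipase that frees arachidonate, was near the limit of detection. The control pools had 0.236, 0 and 0.217 normalised counts and the DEX pools 0.0828, 0.899 and 0.224. The pools had 0.285, 0.765 and 0.556 at 1 week and 0.462, 0.766 and 1.53 at 4 weeks, from 3 to 17 reads. Both recovery groups lay above control without overlap, as did 3.47% of all genes at 1 week and 6.77% at 4 weeks. The log2 difference between 4 weeks and control was 2.07 (95% interval 0.43 to 3.72) and was not called (adjusted p = 0.701).

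The cyclooxygenases showed no difference between groups beyond the spread of their pools. *Ptgs1*, the constitutive enzyme, had 2.60, 1.30 and 2.39 normalised counts in control and 2.48, 2.86 and 5.27 in DEX. It had 1.33, 3.82 and 4.78 at 1 week and 3.97, 2.52 and 2.89 at 4 weeks, so that all groups overlapped. The DEX difference was 0.71 on the log2 scale (95% interval -0.43 to 1.85, adjusted p = 0.866).

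*Ptgs2* is the inducible enzyme and a classical target of glucocorticoid repression. It varied more between the pools of control, and between those of DEX, than between the group means. The 4-week pools lay close together. The control pools had 18.6, 8.72 and 1.30 normalised counts, from 237, 74 and 12 reads, and the DEX pools had 9.11, 5.31 and 1.35. The 1-week pools had 7.70, 3.95 and 2.45 and the 4-week pools 4.34, 3.39 and 3.43. The mean was 9.56 ± 8.70 in control and 5.26 ± 3.88 in DEX (SD, n = 3 pools). The log2 difference of -0.56 had a 95% interval of -2.28 to 1.16 (adjusted p = 0.925), so neither a large fall nor a modest rise could be told from no change. It turned to 0.24 without the first control pool and to 0.20 without the third DEX pool.

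*Hpgds*, the other prostaglandin D synthase, did not follow *Ptgds*. It had 0.551, 0.589 and 0.435 normalised counts in control, from 4 to 7 reads, and 0, 0.164 and 0.336 in DEX, from 0 to 3 reads. It had 0.855, 0.382 and 3.22 at 1 week and 0.370, 0.657 and 0.902 at 4 weeks. All DEX pools lay below all control pools, as for 6.23% of all genes, and the third 1-week pool stood apart with 29 reads. The DEX difference was -1.46 on the log2 scale (95% interval -3.10 to 0.18, adjusted p = 0.784), and 1 week against DEX was 2.35 (adjusted p = 0.225). The 9 macrophage markers summed to 16.6 to 22.9 in DEX and 23.2 to 32.5 in control, also without overlap. They did not all go the same way. The largest of them, *Csf1r*, had a higher mean in DEX (10.98 against 9.607 in control), as did *Mrc1* (0.450 against 0.260). The other macrophage markers had lower means in DEX. The 6 mast cell markers summed to 10.3 to 12.8 in DEX and 12.3 to 21.2 in control, with *Mcpt4* and *Cma1* at 0 in every library. *Cpa3* and *Tpsb2* had 1 read in 1 DEX pool each and 0 elsewhere. Nearly all of this sum came from *Hdc* and *Kit*, so it says little about mast cells. The part of these cells in the *Hpgds* values was not tested.

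No difference was called for the prostaglandin E synthases in any group. *Ptges*, the inducible microsomal enzyme, had 29.9, 40.5 and 28.7 normalised counts in control, 43.2, 30.3 and 46.1 in DEX, 28.8, 31.2 and 19.7 at 1 week and 50.7, 37.7 and 33.3 at 4 weeks. Its DEX difference was 0.26 on the log2 scale (95% interval -0.32 to 0.85, adjusted p = 0.905). The 4-week pools lay above the 1-week pools without overlap, as for 5.19% of all genes, and the difference of 0.61 was not called (adjusted p = 0.887). *Ptges2*, a second membrane-associated synthase, had 28.6, 34.2 and 44.8 in control, 29.6, 29.4 and 45.8 in DEX, 25.3, 27.1 and 26.9 at 1 week and 24.7, 44.3 and 43.7 at 4 weeks. The 1-week pools lay just below all control pools, as for 2.61% of all genes, and the difference of -0.41 was not called (adjusted p = 1). The DEX difference was -0.05 on the log2 scale (95% interval -0.66 to 0.56), and its sign changed without the third control pool or without the first or second DEX pool.

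*Ptgfr*, the prostaglandin F receptor, had no reads in any control or DEX pool, nor in 2 of the 3 pools at 1 week. The third 1-week pool had 0.334 normalised counts and the 4-week pools had 0.370, 0.109 and 0.361, from 1 to 4 reads. These 4 pools alone took the gene past the filter on low values, so the difference between 4 weeks and control (1.83 on the log2 scale, 95% interval 0.47 to 3.20, adjusted p = 0.673) follows in part from the filter. All 9 genes passed the filter. Exons of *Ptgs1* overlap *Gm43621* and those of *Ptgfr* overlap *Gm43618*, both on opposite strands.

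**Figure D3:**
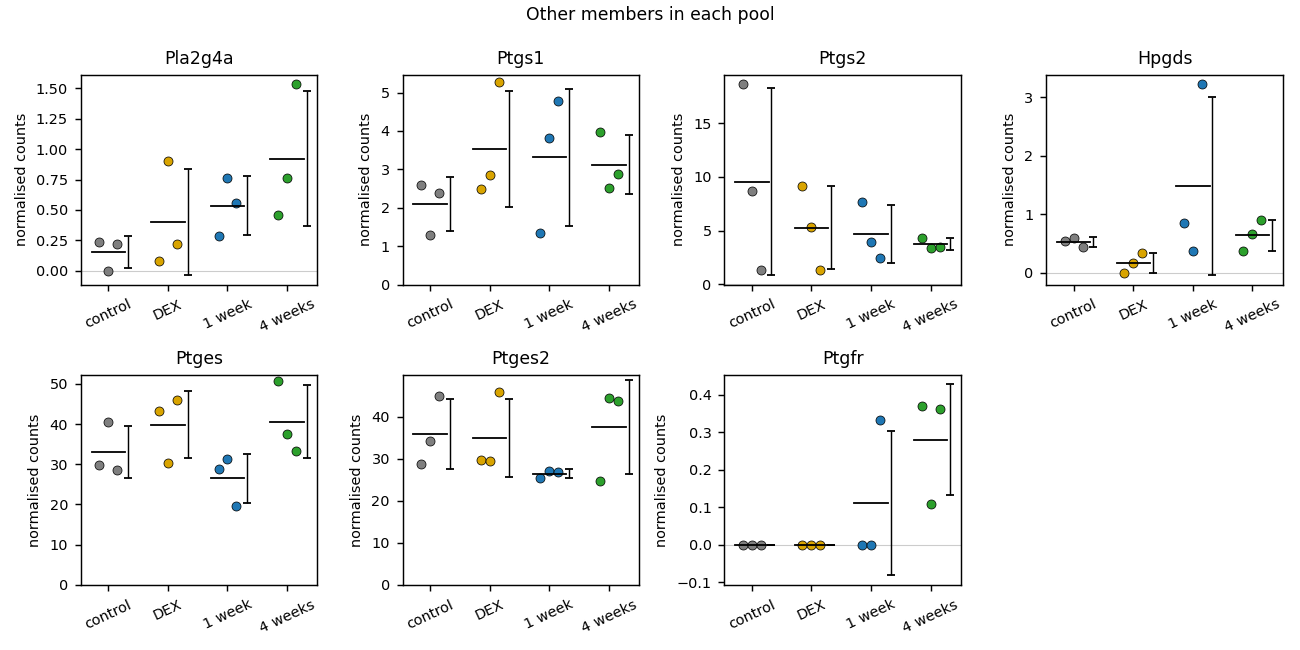
Normalised counts of the 7 genes chosen by function in each pool by group (points), with the group mean (line) and SD (error bar, n = 3 pools). The groups of *Ptgs1* and *Ptgs2* overlap throughout, *Hpgds* is lowest in DEX with 1 high pool of 3.22 at 1 week, and *Ptgfr* has no reads in control or DEX.

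**Figure D4:**
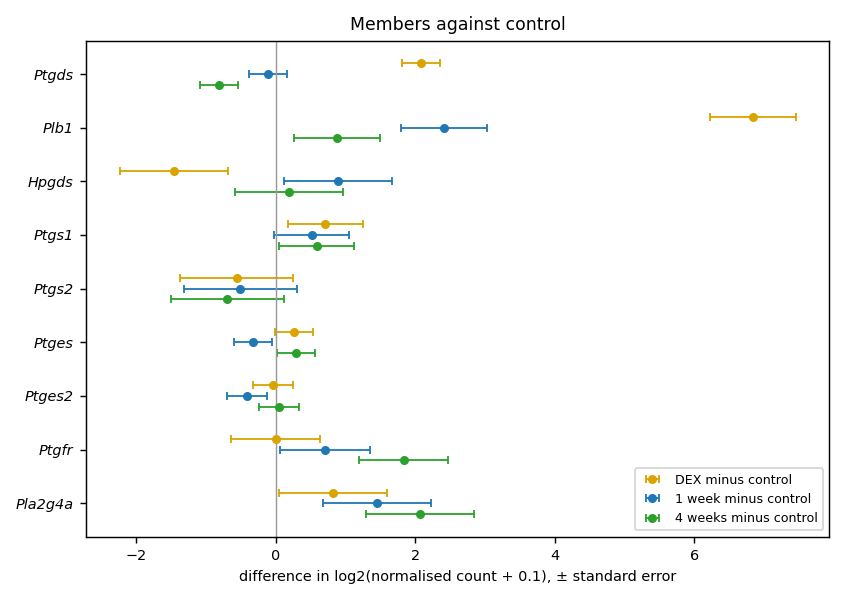
Difference of each group from control in log2(normalised count + 0.1) for the 9 genes, with standard errors from limma, n = 3 pools a group. *Ptgds* (2.08) and *Plb1* lie to the right in DEX because they were chosen for it, the *Plb1* value depends on the 0.1 added to its control values of 0, and the DEX differences of the other genes lie between -1.46 and 0.82.

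Levels of different genes were compared per kilobase of annotated exon, which takes no account of which transcripts were used. In control the order was *Ptgds* (23.4 normalised counts per kilobase), *Ptges* (8.41), *Ptges2* (7.09), *Ptgs2* (2.09), *Ptgs1* (0.539), *Hpgds* (0.0817) and *Pla2g4a* (0.0237), with *Plb1* and *Ptgfr* at 0. The pools of *Ptges* overlapped those of *Ptges2*, and those of *Ptgs2* overlapped *Ptgs1*. In DEX the level per kilobase was 102 for *Ptgds*, 10.1 for *Ptges*, 6.90 for *Ptges2*, 1.15 for *Ptgs2*, 1.00 for *Plb1* and 0.911 for *Ptgs1*. The last 3 overlapped. At 4 weeks *Ptgds* (13.2 per kilobase) overlapped *Ptges* (10.3), which it did in no other group. *Hpgds*, the other prostaglandin D synthase, stayed at or below 0.232 per kilobase in all group means.

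The wider pathway comprised 67 further genes in 7 lists, of which 64 were in the table and 57 passed the filter. *Pla2g16*, *Fam213b* and *Ptgr3* were listed beside *Plaat3*, *Prxl2b* and *Zadh2*, the names the table uses. In DEX against control limma called 0 of the 57, with 27 higher and 30 lower, a median log2 difference of -0.04 against -0.02 over all genes, and 8 genes at an unadjusted p under 0.05. The quasi-likelihood test also called 0 of the 57, the likelihood ratio test 1 and DESeq2 2, beside 0.17%, 1.11% and 0.768% of all genes. Across the 4 groups limma called 0 (smallest adjusted p = 0.0576, 8 genes at an unadjusted p under 0.05), the quasi-likelihood test 1, and the likelihood ratio test and DESeq2 4 each. These tools called 0.639%, 4.18% and 2.97% of all genes in that order. In 4 weeks against DEX limma called 2 of the 57, both higher, beside 0.873% of all genes, with a median of 0.12 against 0.00 over all genes.

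The genes that limma called in 4 weeks against DEX were *Plbd1* and *Pla2g7*. *Tbxa2r*, a prostanoid receptor, was not called there by limma (log2 difference 3.765, SE 0.954, adjusted p = 0.0834). It was called there with library weights, the likelihood ratio test, DESeq2 and without the third 1-week pool. *Plbd1*, a lysosomal relative of phospholipase B found in myeloid cells, had 0.0828, 0.0818 and 0 normalised counts in DEX and 2.96, 2.08 and 4.87 at 4 weeks. The control pools had 0.157, 0.353 and 0.761. The log2 difference between 4 weeks and DEX was 4.43 (SE 0.760, adjusted p = 0.0152), from at most 1 read per DEX pool, and ran from 1.98 with a pseudocount of 1 to 5.81 with DESeq2. The call was lost when any of 5 of the 6 pools compared was left out (adjusted p up to 0.0927) and when only the 2 groups were fitted (adjusted p = 0.0522). *Pla2g7*, the platelet-activating factor acetylhydrolase of plasma and macrophages, had 21.5, 22.3 and 26.0 in DEX, 62.9, 71.6 and 64.7 at 4 weeks and 35.7, 59.7 and 54.3 in control. Its difference was 1.51 (SE 0.304, adjusted p = 0.0290). The call was lost when any of the 6 pools compared was left out (adjusted p from 0.0919 to 0.154). The groups did not overlap, but 14 of the 57 pathway genes had all 4-week pools above all DEX pools and 5 had all below. The share over all genes was not computed for this comparison, so these counts cannot be read as a result about the pathway. In the same pools the macrophage sum was 16.6 to 22.9 in DEX and 24.2 to 65.5 at 4 weeks, and the endothelial sum 3.23 to 9.32 and 76.8 to 147. Exons of *Pla2g7* overlap *1700071M16Rik* on the opposite strand, which had 3.40 to 4.93 in DEX and 9.09 to 11.4 at 4 weeks. The part of other cells or of overlapping reads was not tested.

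The gene with the highest mean count in each list was called by limma in no comparison. *Pla2g12a*, a secreted phospholipase A2, ranged from 34.8 to 179 normalised counts over the 12 libraries. *Ptges3*, a chaperone partner of the glucocorticoid receptor also described as a cytosolic prostaglandin E synthase, ranged from 86.5 to 125, with a DEX difference of 0.11 on the log2 scale (adjusted p = 0.955). *Ptger4*, a prostaglandin E receptor, ranged from 7.67 to 38.5, and *Ptgr2*, a prostaglandin reductase, from 26.4 to 61.4. *Lta4h* of the leukotriene branch ranged from 28.7 to 64.0 and the lysophospholipase *Lypla2* from 70.0 to 179. *Ptgs2* had the higher mean of the cyclooxygenases. The receptors for prostaglandin D gave few reads, since *Ptgdr* did not pass the filter and *Ptgdr2* had 0.438 to 1.66.

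**Figure D5:**
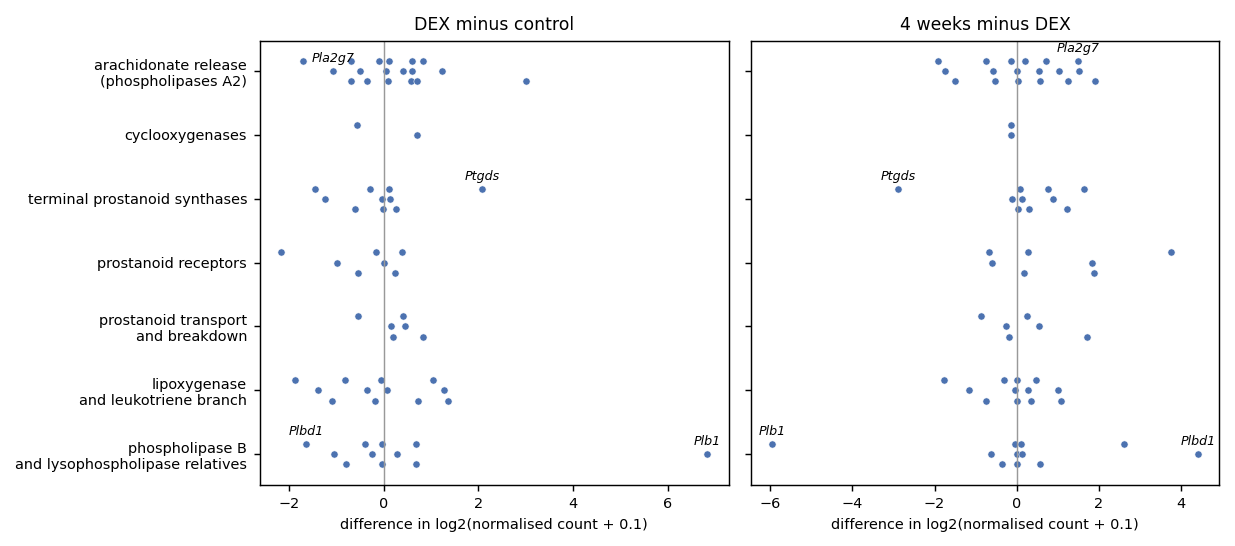
Differences in log2(normalised count + 0.1) of the tested genes (points) in the 7 pathway lists, members included, for DEX minus control and 4 weeks minus DEX. *Ptgds* and *Plb1*, chosen by their rise, stand out from their lists in both panels. *Plbd1* (4.43) and *Pla2g7* (1.51) are the 2 genes that limma called at 4 weeks against DEX.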

How the data were processed

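RNA of sorted *Pomc*-eGFP cells was measured in 12 libraries, 4 groups of 3 pools, grouped by the sample labels. The authors amplified the RNA with SMART-V4, prepared libraries with Nextera XT, trimmed reads with Trim Galore 0.6.5, aligned them to GRCm38 (STAR 2.7.1a) and counted them by strand with featureCounts 2.0.0, with edgeR for the normalisation. The deposited signal is CPM of the TMM-scaled library size. All 271881 values above 0 came out as whole reads (within 1e-06), 7719894 to 12848078 per library.

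Genes above 0.1 in at least 3 libraries (24736) were tested in R 4.3.3 with limma 3.58.1 (lmFit, eBayes with trend) on log2(value + 0.1), all libraries in 1 model, with an F test over the 3 contrasts to control and pairwise contrasts. P-values were adjusted by Benjamini-Hochberg over all genes and called under 0.05. Alternatives were other pseudocounts, filters and scaling, library weights, a replicate block, only the groups compared, each library left out, and edgeR 4.0.16 and DESeq2 1.42.0 on the recovered reads. The scripts were tested on simulated data. The genes and lists were chosen with earlier results of these data known. Named genes were the 9 members, pathway genes with an adjusted p under 0.05 by limma, the most abundant gene of each list, and the 8 genes most correlated with *Ptgds* and with *Plb1*. Of the pathway genes that only the alternatives called, not all were named. Coordinates and exon lengths are from GENCODE M21 on GRCm38.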

Additional observations from a re-analysis of the deposited data

How the results depend on the processing

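The 7 genes chosen by function gave 0 calls across the 4 groups and 0 in DEX against control under every alternative run. The pathway genes, 0 called by limma across the 4 groups, gave 6 with library weights, 1 with edgeR's quasi-likelihood test, 4 with the likelihood ratio test, 4 with DESeq2 and 0 to 3 with single libraries left out (3 without the third 1-week pool, 1 without the first). In DEX against control they gave 3 with library weights, 1 with the likelihood ratio test, 2 with DESeq2 and 0 to 1 with single libraries left out (1 without the third 1-week pool). The log2 difference of *Plb1* between DEX and control, 6.84 with 0.1 added, was 4.57 with 0.5 added, 3.63 with 1 added, 9.89 with either edgeR test and 9.28 with DESeq2, since its control values are 0. That of *Ptgds* kept its direction in all 23 alternatives, from 1.78 to 2.24. *Ptgs2* in DEX against control, -0.56, reversed to 0.24 without the first control pool and 0.20 without the third DEX pool (-1.63 to 0.24 with single libraries left out). *Ptges2*, -0.05, reversed to 0.13 without the third control pool, 0.06 without the first DEX pool and 0.06 without the second (-0.26 to 0.13). *Plbd1* at 4 weeks against DEX, 4.43, was 2.71 with 0.5 added and 1.98 with 1 added. Over all genes limma called 78 across the 4 groups and 30 in DEX against control, against 1069 and 166 with library weights, 158 and 42 with the quasi-likelihood test, 1033 and 274 with the likelihood ratio test and 734 and 190 with DESeq2. Pseudocounts of 0.5 and 1 gave 49 and 54 in DEX against control, and a fit on only the groups compared gave 1 and no test across the 4 groups. With single libraries left out the counts were 7 (without the third DEX pool) to 185 (without the third 1-week pool) across the groups and 2 (without the second control pool, and without the third DEX pool) to 73 (without the third 1-week pool) in DEX against control. The cause of these differences was not tested. With the replicate block the 4 groups gave 85 calls, the members 0, and *Ptgds* at 4 weeks against 1 week -0.70 (adjusted p = 0.699), and no call on a named gene changed. Deviations of same-numbered pools correlated from -0.29 to 0.40 over 18 pairs, so the numbers were not taken to pair the samples. Depth limits *Plb1* outside DEX, *Hpgds*, *Pla2g4a* and *Ptgfr*, which rest on few reads per library.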

Other observations

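*Ptgs2* had its highest value in the first pool of all 4 groups (18.6, 9.11, 7.70 and 4.34 normalised counts in control, DEX, 1 week and 4 weeks). So did *Ptger4*, a prostaglandin E receptor (38.5, 36.0, 32.6 and 20.5). Of the 62 member and pathway genes with a single highest pool in every group, these 2 were highest in the first pool of all 4 groups, 0 in the second and 1, *Pla2g2d*, in the third. The genes most like *Ptgs2* over the 12 libraries were *Stxbp5l* (Pearson r 0.940), *Smarce1* (0.928), *Gm43019* (0.914) and *St7l* (0.913). These genes were chosen after their values were seen, and no test was made.

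*Aloxe3*, an epidermal-type lipoxygenase of the leukotriene list, was also chosen after its values were seen. It had 17.4, 16.4 and 22.4 normalised counts in control, 4.80, 5.80 and 4.49 in DEX, 21.9, 30.5 and 9.56 at 1 week and 17.5, 7.55 and 9.11 at 4 weeks. All DEX pools lay below all pools of the other groups. Of all genes, 6.23% had all DEX pools below all control pools. The log2 difference between DEX and control was -1.87 (SE 0.409) and was not called by limma (adjusted p = 0.103). It was called with library weights, the likelihood ratio test, DESeq2 and without the third 1-week pool. *Alox5ap*, which presents arachidonate to 5-lipoxygenase, had 5.22, 5.89 and 8.07 in DEX against 3.15, 2.59 and 3.26 in control and 1.39, 1.20 and 3.25 at 4 weeks, and no contrast was called by limma. DESeq2 called it across the 4 groups, and DESeq2 and library weights called it in 4 weeks against DEX.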
